A study of Mus musculus with 46 samples.

Results

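H3.3 deposition was compared between cells collected unsorted on day 3 after induction (D3) and cells sorted as negative for the surface marker Thy-1 on day 6 (D6T-). Both were mouse embryonic fibroblasts (MEFs) from E13.5 embryos that carried an IRES-EGFP cassette in the Oct4 (Pou5f1) locus, and both had received Oct4, Sox2, Klf4 and c-Myc (OSKM) from pMXs retroviruses in feeder-free medium. These 2 samples were chosen by their labels among the 46 samples of the series, of which 30 have peak lists and 16 are H3.3 libraries. The same lot of H3.3 antibody was used for both. Day and sort changed together between D3 and D6T-, so time after induction and selection of Thy-1-negative cells cannot be told apart, and D6T- cells are a sorted share of a culture in which every cell was exposed to virus. Each group had 1 library. No test between the groups was therefore possible, and the 95% intervals given below (Wilson for a share, Newcombe for a difference of shares) cover counting error only. Each library is a bulk of many cells, so fewer cells with H3.3 at a site and less H3.3 per cell cannot be told apart.

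H3.3 is a variant of histone H3 that is placed into chromatin outside DNA replication, by the HIRA complex at active genes and regulatory elements and by ATRX and DAXX at repeats. It accumulates over transcribed genes and at enhancers, where nucleosomes turn over. During reprogramming, fibroblasts that respond to OSKM first lose Thy-1 and other mesenchymal features, then take on epithelial features, and only later switch on the endogenous pluripotency network. D3 to D6T- spans the first of these changes.

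A peak here is a stretch of the genome with more ChIP tags than its surroundings and than an input library, and its normalized tag count is the number of ChIP tags in it per 10 M tags of the library (M, mega), not divided by its length. The D3 list held 74684 peaks from 25.8 M tags and the D6T- list 82764 peaks from 29.7 M tags. A larger part of the D6T- tags lay in peaks, 19.3% against 11.3% in D3, and its peaks were longer, with a median of 795 bp against 643 bp. D6T- peaks covered 127 Mb and D3 peaks 81.4 Mb. Because of this difference in enrichment between the libraries, higher counts in D6T- were read against the median shift over all genes, and the total counts of peaks and genes gained and lost were also taken from equal numbers of top peaks. The shares on the X chromosome, in other stages and of motif words in the highest quartile were taken from all peaks only.

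The sequences below are 40 bases to either side of a motif word in peaks that were gained in D6T- (no overlapping D3 peak) or lost (a D3 peak with no overlapping D6T- peak). They come from intergenic or intronic peaks with high normalized tag counts that hold the word within the central 500 bp and no exon in the printed stretch, and they show where words for the delivered factors and for fibroblast factors sat. The word is in capitals, the text is the plus strand of mm9 (NCBIM37), and on the minus strand the word reads as its reverse complement. The first pair are gained peaks with the octamer, the word bound by Oct4, at chr2:131058289-131058376 (intergenic) and chr12:80907211-80907298 (intergenic).
gained, octamer, chromosome 2: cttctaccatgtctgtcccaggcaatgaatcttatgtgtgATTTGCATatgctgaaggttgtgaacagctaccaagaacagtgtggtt
gained, octamer, chromosome 12: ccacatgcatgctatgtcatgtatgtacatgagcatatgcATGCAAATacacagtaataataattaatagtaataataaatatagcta

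The peaks around them were 6.43 kb and 4.91 kb long with normalized tag counts of 95.7 and 92.2, and both were also covered by peaks in D9T-, in induced pluripotent stem cells (iPSCs) and in the embryonic stem cell line ESD3, but not in MEFs at day 0 (D0). The chromosome 2 peak was also covered in day 6 Thy-1-positive cells (D6T+). Gained peaks with the word bound by Sox factors are shown next, at chr6:47726164-47726250 (intergenic) and chr11:35338665-35338751 (an intron of Slit3, a secreted guidance ligand). The word bound by Klf factors follows, at chr6:47726236-47726323, in the same chromosome 6 peak (fold over input 2.34, near the 2-fold limit of the peak caller), and at chr12:76583141-76583228, in an intron of Ppp2r5e, a regulatory subunit of protein phosphatase 2A. The Slit3 and Ppp2r5e peaks were gained relative to D3 but were covered in D0 and D6T+, and the chromosome 6 peak was covered in D6T+ and not in D0.
gained, Sox, chromosome 6: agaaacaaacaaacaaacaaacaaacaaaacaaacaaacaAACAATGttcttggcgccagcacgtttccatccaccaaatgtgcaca
gained, Sox, chromosome 11: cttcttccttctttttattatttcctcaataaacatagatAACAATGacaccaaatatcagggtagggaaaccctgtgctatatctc
gained, Klf, chromosome 6: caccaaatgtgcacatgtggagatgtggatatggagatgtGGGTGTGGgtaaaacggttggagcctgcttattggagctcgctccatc
gained, Klf, chromosome 12: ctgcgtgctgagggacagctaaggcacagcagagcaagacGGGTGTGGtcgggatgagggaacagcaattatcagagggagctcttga

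Lost peaks are shown with the words of AP-1 (Fos and Jun dimers) and of TEAD factors, which are widespread at fibroblast enhancers. The AP-1 windows lie at chr14:44106495-44106581 (intergenic) and chr11:59582327-59582413 (an intron of Mprip, a myosin phosphatase partner), and the TEAD windows at chr11:59469028-59469114 and chr11:94742806-94742892 (both intergenic).
lost, AP-1, chromosome 14: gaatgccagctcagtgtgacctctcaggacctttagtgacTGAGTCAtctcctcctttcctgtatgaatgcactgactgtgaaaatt
lost, AP-1, chromosome 11: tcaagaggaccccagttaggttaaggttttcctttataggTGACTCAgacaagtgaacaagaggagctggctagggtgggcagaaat
lost, TEAD, chromosome 11, first: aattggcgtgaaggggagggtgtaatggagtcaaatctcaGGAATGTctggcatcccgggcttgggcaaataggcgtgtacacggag
lost, TEAD, chromosome 11, second: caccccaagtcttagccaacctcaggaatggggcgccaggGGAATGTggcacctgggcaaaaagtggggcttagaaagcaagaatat

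All of these lost peaks were covered in D0 and none in D9T-. All but the first TEAD peak were covered in D6T+. The first TEAD peak was covered in iPSCs and the Mprip peak in ESD3. Counts over all windows gave the shares of each word. Among the highest quartile of peaks by normalized tag count, the octamer (ATGCAAAT) was found in 4.99% of 3688 gained windows and in 2.52% of 2226 lost windows, a difference of 2.47 percentage points (1.49 to 3.42). The Sox word (AACAATG) was in 10.5% of gained and 8.09% of lost windows, and the Klf word (GGGTGTGG) in 7% and 4.54%. The order was the opposite for AP-1 (TGAGTCA), found in 11.7% of gained and 16.4% of lost windows, and for TEAD (ACATTCC), found in 6.18% and 8.22%. Words for Runx (AACCACA) and for E-box factors such as c-Myc (CACGTG) gave intervals of the difference that included 0 in this quartile, -2.71 to 0.811 points for Runx and -1.52 to 1.12 points for the E-box.

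**Figure D1:**
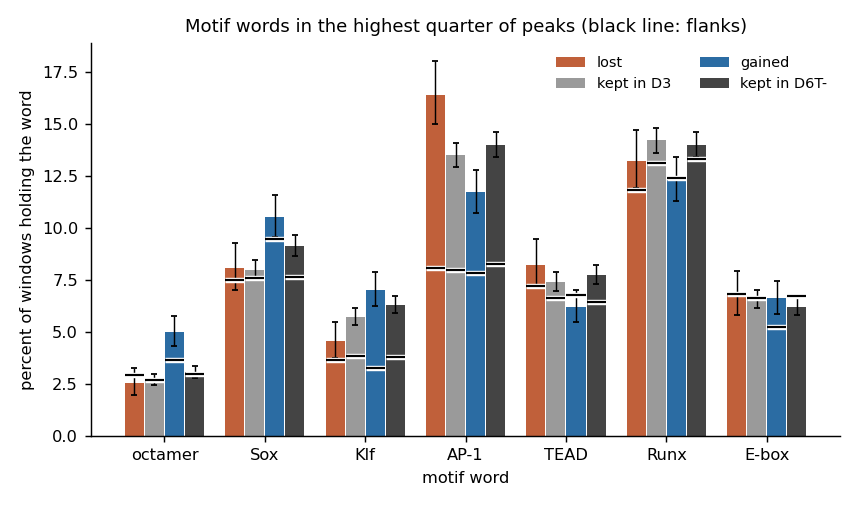
Share of 500 bp windows (percent, vertical axis) that hold each motif word on either strand, for the highest quartile of intergenic and intronic peaks that were lost, kept or gained; whiskers are 95% Wilson intervals and black lines mark windows 5 kb away. The octamer stood at 4.99% in gained peaks against 2.52% in lost peaks, and AP-1 at 11.7% against 16.4%.

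The base level of each word was taken from flanking windows at a distance of 5 kb that were free of D3 and D6T- peaks. For the octamer it was 3.66% beside gained and 2.93% beside lost peaks of this quartile, so the surroundings differed in the same direction as the peaks. They were also lower in G and C beside gained peaks (43.3% against 44.4%). The Sox word was in 9.46% of the flanks of gained peaks and in 7.50% of those of lost peaks, a gap close to that between the peaks themselves. The Klf word, rich in G, was in 3.27% of the flanks of gained peaks and in 3.63% of those of lost peaks. AP-1 was in 7.83% and 8.07% of flanks, so that gained peaks too held AP-1 more often than their surroundings. TEAD was in 6.77% and 7.20% of flanks, and gained peaks held it no more often than their flanks. Over all intergenic and intronic peaks the differences were smaller except for the E-box, with the octamer in 3.89% of 42598 gained and 2.82% of 29129 lost windows and AP-1 in 11% and 11.8%. The E-box was in 6.01% of gained and 6.52% of lost windows there, a difference of -0.507 points (-0.872 to -0.147). A word is a match of letters, not a bound site.

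Of the D3 peaks, 32854 (44.0%, 43.6 to 44.3) had no D6T- peak over any of their bases and were counted as lost. Of the D6T- peaks, 48101 (58.1%, 57.8 to 58.5) had no D3 peak and were counted as gained. The peaks that overlapped shared 46.6 Mb, which was 57.2% of the D3 bases and 36.5% of the D6T- bases. Since D6T- peaks were longer, one could span several D3 peaks: 6537 of the 34663 kept D6T- peaks (18.9%) touched more than 1 D3 peak, and the one that touched most held 12. With the 74684 highest peaks of each list, 45.6% of D3 peaks were lost and 55.5% of D6T- peaks gained.

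Turnover fell mainly on peaks with low normalized tag counts, a count that also grows with peak length. In the lowest quartile by normalized tag count, 66.9% of D3 peaks were lost and 82.0% of D6T- peaks gained, while in the highest quartile the shares were 13.4% and 20%. Lost peaks had a median normalized tag count of 6.97 and a median length of 500 bp, against 11.8 and 834 bp for kept D3 peaks. Gained peaks had 8.26 and 633 bp, against 22.1 and 1585 bp for kept D6T- peaks. The lowest normalized tag counts in the lists were 5.03 in D3 and 4.89 in D6T-, so the median lost and gained peak lay near the detection limit. Peaks of 10 kb or longer were rarely at one time only, with 2 among gained and 874 among kept D6T- peaks.

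**Figure D2:**
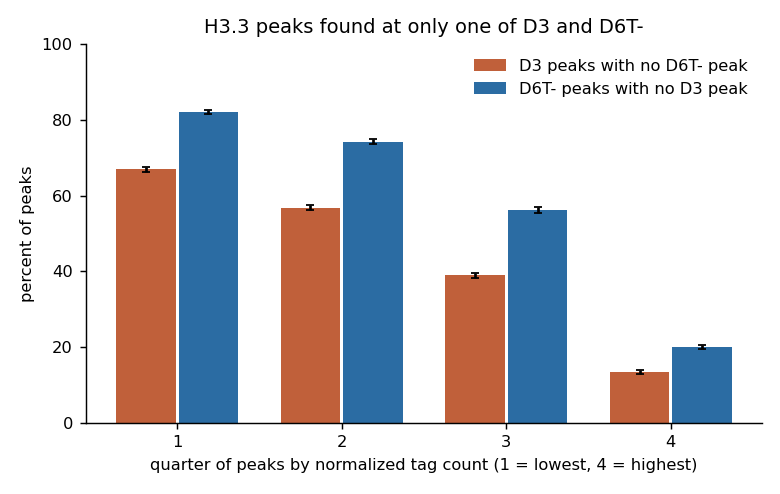
Percent of H3.3 peaks (vertical axis, 95% Wilson intervals) found at only 1 of the 2 time points, by quartile of the library's peaks from the lowest (1) to the highest (4) normalized tag count. The share lost fell from 66.9% to 13.4% and the share gained from 82.0% to 20%.

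Lost and gained peaks lay away from promoters more often than kept peaks. A promoter (1 kb before to 100 bp after a transcription start site) held 3.22% of lost and 3.81% of gained peaks, against 6.85% of kept D3 and 6.84% of kept D6T- peaks. Intergenic positions held 30.2% of lost and 30.6% of gained peaks, against 24.3% and 25.1% of kept peaks. Introns held most peaks of every kind, from 56.3% to 58.6%. By position in genes, lost and gained peaks thus differed from kept peaks more than from each other.

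Libraries of other stages, which played no part in calling a peak lost or gained, separated them. In the highest quartile, 79.6% of the 2495 lost peaks were covered by a D0 peak and 21.3% by a D9T- peak, while 37.5% of the 4136 gained peaks were covered in D0 and 85.4% in D9T-. Day 6 Thy-1-positive cells (D6T+), which had the same time after induction as D6T- but were sorted the other way, covered 52.5% of lost and 42.0% of gained peaks. Kept peaks gave the comparison for what a peak with a high tag count shows by itself, with 83.8% (kept D3) and 83.0% (kept D6T-) covered in D6T+. Gained peaks were covered more often than lost peaks in D12S+ (45.4% against 11.1%), in iPSCs (44.8% against 22.2%) and in ESD3 (29.7% against 12.0%). Kept D3 and kept D6T- peaks were covered more often still, 58.5% and 67.6% in D12S+, 61.2% and 66.2% in iPSCs and 44.0% and 50.5% in ESD3. The highest quartile began at a normalized tag count of 15.7 in D3 and 23.4 in D6T-, so lost and gained peaks were cut at different levels. Over all peaks of any tag count the shares were lower, with 36.6% of gained and 13.5% of lost peaks covered in D9T-.

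**Figure D3:**
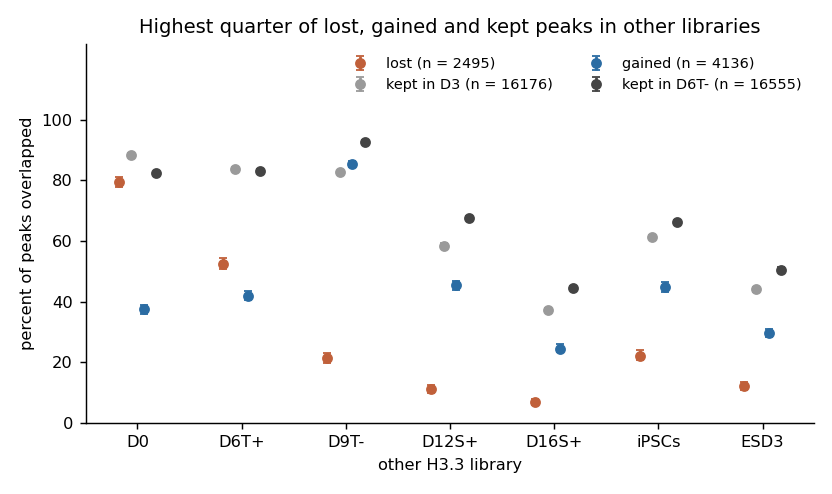
Percent of peaks (vertical axis, 95% Wilson intervals) of the highest quartile that were overlapped by a peak of another H3.3 library (horizontal axis; T- and T+ are Thy-1-negative and Thy-1-positive, S+ is SSEA-1-positive). Lost peaks stood at 79.6% in D0 and 21.3% in D9T-, and gained peaks at 37.5% and 85.4%.

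H3K4me3 and H3K36me3 had been mapped at the same times. H3K4me3, a mark of active promoters and strong enhancers, lay on 11.2% of gained peaks at D3 and on 20.1% at D6T-, and on 10.2% and 10.7% of lost peaks. In the highest quartile the values for gained peaks were 21.1% and 46.8%, and for lost peaks 13.6% at both times. The D6T- H3K4me3 list was itself longer, with 39099 peaks against 28894, and kept D6T- peaks moved from 31.8% to 41.0%. H3K36me3, a mark of transcribed gene bodies, lay on 19.2% of lost peaks at D3 and on 10.8% at D6T-. For gained peaks it was 15.7% and 11.8%, and for kept peaks 28.6% and 20.8% (D3) and 30.0% and 22.6% (D6T-), so that it was lower at D6T- on peaks of every kind. The D6T- H3K36me3 list was shorter (36943 against 52456 peaks) and its fragment length was estimated at 444 bp against 126 bp in D3, and the part of these differences in the H3K36me3 shares was not tested.

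The X chromosome stood apart from the autosomes. It held 364 peaks in D3 and 1041 in D6T-, a ratio of 2.86, while the 19 autosomes gave ratios from 1.02 to 1.22. Of the D6T- peaks on X, 899 (86.4%, 84.1 to 88.3) were gained, against 54.1% to 62.5% on the autosomes. Of the D3 peaks on X, 195 (53.6%, 48.4 to 58.6) were lost, against 36.9% to 49.9% on the autosomes. The unshared part of X peaks was thus higher in both directions. X peaks were 0.487% of all peaks in D3, 0.555% in D6T+ and 0.656% in D0, but 1.26% in D6T- and 1.19% in D9T-. Later stages had no single level, with 0.632% in D12S+, 1.14% in D16S+, 0.958% in iPSCs and 0.661% in ESD3. X peaks had a low median normalized tag count, 6.77 in D3 against 8.71 over all D3 peaks, and 7.92 in D6T- against 10.8 over all D6T- peaks. Their median fold over input in D6T- was 4.82, against 3.82 to 4 on the autosomes. In the input libraries, the density of tags within X peaks relative to autosomal peaks was 0.737 in D3 and 0.761 in D6T-. The sex of the embryos is not given in the sources used here.

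At the level of genes, a gene was called bound when a peak's midpoint lay within its span or 1 kb of it. Of 22238 genes, 11950 were bound in D3 and 12403 in D6T-, and 10519 in both. Then 1884 genes (8.47%) were gained and 1431 (6.43%) lost, or 1729 (7.77%) and 1641 (7.38%) with equal numbers of top peaks. Most of these calls rested on little signal: 1251 of the gained genes had 1 peak in D6T-, and the median sum of normalized tag counts was 13.7 in gained genes against 69.7 at D6T- in genes bound at both times. Gained and lost genes were shorter than genes bound at both times, with median lengths of 15.7 kb and 13.9 kb against 28.7 kb.

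Gained and lost genes were then looked up in the other stages. D0 bound 974 of the gained genes (51.7%) and 950 of the lost genes (66.4%), and D9T- bound 63.4% of gained and 38.2% of lost genes. The share in iPSCs was 61.7% and 58.6%. Genes bound at both D3 and D6T- were bound in D0, D9T- and iPSCs in 92.8%, 90.8% and 87.4% of cases. For genes bound at neither, the shares were 12.9%, 7.54% and 18.9%. Gained and lost genes lay between these levels in all 3 libraries. In iPSCs their intervals overlapped (59.5 to 63.8 and 56.1 to 61.2). Of the 910 gained genes that were not bound in D0, 711 were not bound in D6T+ either, and D9T- bound 386 of those. H3K4me3 was gained on 8.92% of the gained genes, against 3.79% of all genes, and it was lost on 2.28% of them, against 2.07% of all genes. On the lost genes H3K4me3 was gained in 4.12% (3.21 to 5.28), near the 3.79% of all genes. It was lost in 3.70% of them (2.84 to 4.81), above the 2.07% of all genes. The X chromosome carried 126 gained genes (13.6% of 927, 11.5 to 15.9) and 19 lost genes (2.05%, 1.32 to 3.18).

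The midpoint rule moved calls where peaks were long. Of the 12 gained genes with the highest sums, 9 were touched by a D3 peak whose midpoint lay outside the gene. Among them were Actb (cytoplasmic actin), Rps7 (a ribosomal protein), Gnb2l1 (the ribosomal scaffold Rack1), Atf4 (a stress transcription factor), Surf2 and Snapc5. Sharing each peak's tag count out by the length that lay on the gene (the tag count on the gene, used from here on), these 9 were between 1.67-fold and 2.49-fold higher in D6T-. All 12 lost genes with the highest D3 sums (Srsf3, Hnrnpab, Trim41, Junb, Hspd1, Rbm4b, Cd68, Midn, Fam83e, Hdgf, Rplp2 and Rps24) were likewise touched by D6T- peaks, with ratios from 0.943 to 1.73. None of these genes was therefore read as gained or lost. The same held for 4 of the 6 genes with the highest midpoint ratios, Rps13, Pgam1, Hsp90ab1 and Tmc6, whose tag counts on the gene differed by 1.84-fold to 2.34-fold. Among the 6 lowest, BC016423 had 126 and 106 on the gene, and Rpl7, another ribosomal gene, had 61.3 and 93.2 and so turned direction.

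By touch, 1731 genes (7.78%) were gained and 1003 (4.51%) lost. Under all 3 rules together (midpoint, equal numbers and touch), 1348 genes were gained and 899 lost. Equal numbers kept every D3 peak and dropped only D6T- peaks, so all 1431 genes lost by midpoint stayed lost. For lost genes this rule was therefore no check, and only the midpoint and touch rules could differ. Over the 11763 genes touched at both times, the tag count on the gene had a median ratio of 1.64 (0.72 on the log2 scale), 4327 (36.8%) were at least 2-fold higher in D6T- and 653 (5.55%) at least 2-fold lower. By the midpoint sums, 4134 of 10519 genes (39.3%) were at least 2-fold higher and 853 (8.11%) at least 2-fold lower. A ratio of 1.64 was thus the level of the typical gene, and the genes named below were chosen after their values were seen, as those with the highest counts that changed under all rules or the most extreme ratios.

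Among the genes gained under all rules, Tet2, which oxidizes 5-methylcytosine, led. Its tag count on the gene (chr3:133126643-133207354) was 55.3 in D0, 0 in D3, 32.8 in D6T+, 372 in D6T- and 375 in D9T-, and then 282 in iPSCs and 142 in ESD3. Its D6T- signal came from 15 peaks, of which the strongest lay in an intron (chr3:133177584-133183295, normalized tag count 94.4). Sox13, a SoxD transcription factor, had no peak in D0 or D3, 13.7 in D6T+, 279 in D6T- and 372 in D9T-. Both genes had higher counts in the Thy-1-negative cells of both days than in D0, D3 or D6T+.

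Aldh3a1, an aldehyde dehydrogenase of epithelia, had 195 in D6T- and 166 in D9T-, against 0 in D0 and D3 and 7.45 in D6T+. It had no peak in iPSCs or ESD3, so its H3.3 was seen mainly in the intermediate Thy-1-negative cells. Ccnb1ip1, a meiotic crossover factor, had 149.6 in D6T- and 65.9 in D9T-, and Timeless, which protects replication forks, had 142 in D6T- after 74.3 in D0 and 0 in D3. Several of the highest gains were on X. Bcor, a corepressor of the non-canonical Polycomb complex, had 153 in D6T- and 0 in D3, Rbbp7, a histone-binding subunit of PRC2 and NuRD, had 117 and 0, and Rps6ka3, the kinase Rsk2, had 110.4 and 0. Bcor had 58.8 in D0, whereas Rbbp7 and Rps6ka3 had no D0 peak.

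Some genes already touched at D3 had far higher counts in D6T-. Ccdc141, which codes for a centrosome-linked protein, went from 54.2 to 1480.4 (27.3-fold) and had 1521 in D9T- and 19.1 in D0. Abca1, the cholesterol exporter, went from 18.8 to 504 (26.9-fold), Taf1b, a subunit of the RNA polymerase I initiation factor, from 6.58 to 297 (45.1-fold), and Plk1s1, a centrosomal Plk1 substrate, from 5.61 to 262 (46.8-fold). Wee1, the kinase that holds Cdk1 inactive, went from 5.81 to 159. The D3 values of Taf1b, Plk1s1 and Wee1 were each a single peak near the detection limit, so their ratios have a loose denominator. In D6T+ the first 4 of these genes had between 0 and 42.6.

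The gene with the highest D3 count among those lost under all rules was Pdgfrb, the beta receptor for platelet-derived growth factor, with 386 in D0, 93.7 in D3, 7.22 in D6T+ and 0 in D6T-. Adamts12, a matrix metalloprotease, had 261, 76.3, 13.7 and 0 in D0, D3, D6T+ and D6T-. Col27a1, a fibrillar collagen, had 401, 65.2, 37.2 and 0. Gxylt2, a xylosyltransferase, had 414, 68.6, 30.1 and 0. In these 4 genes the count was highest in D0 and already much lower in D3. D0 also had more of its tags in peaks than D3 (19.1% against 11.3%), and the part of this in the lower counts was not tested. Sgpl1, the sphingosine-1-phosphate lyase, went a different way, with 241 in D0, 86.5 in D3, 124 in D6T+, 0 in D6T- and then 76.9 in D9T- and 73.1 in iPSCs.

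**Figure D4:**
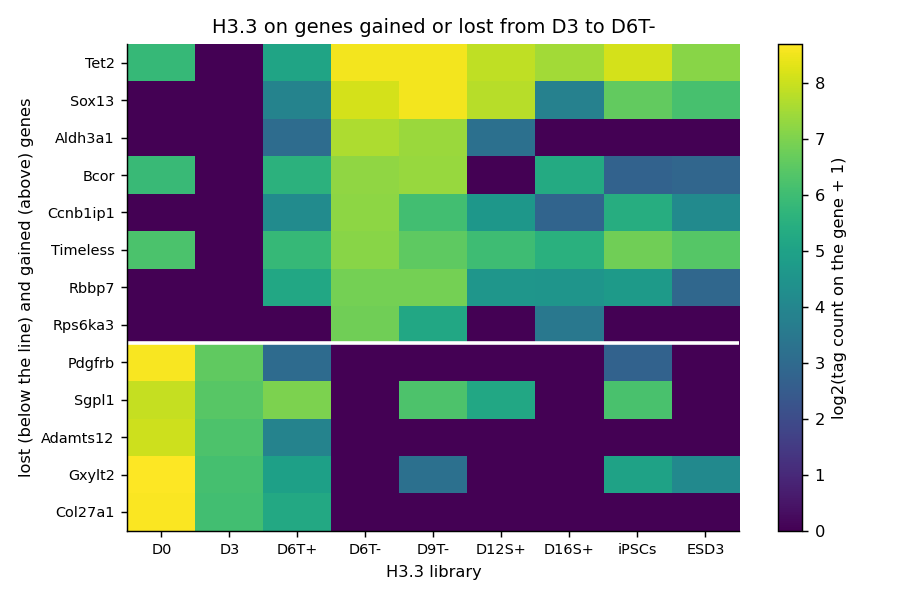
Tag count on the gene, as log2(tag count + 1) in colour, in 9 H3.3 libraries (horizontal axis) for the genes described in the text that were gained (above the line) or lost (below it) under all rules. Tet2 stood at 0 in D3 and 372 in D6T-, and Pdgfrb at 93.7 and 0.

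The lowest ratios among genes touched at both times, with a tag count on the gene of at least 50 at one of them, were those of Snx11, a sorting nexin (58.5 and 0.0469, a ratio of 0.000801), and Ikbke, a kinase of innate immune signalling (51.3 and 1.31, 0.0255), with Aldh4a1, a mitochondrial enzyme of proline breakdown, also among them (63.4 and 2.81, 0.0443). In these 3 genes no D6T- peak had its midpoint on the gene. The D6T- count of Snx11 came from only 0.00300 kb at the end of a peak, so its ratio depends on where that peak ended. Col5a1, a fibrillar collagen, had 2173 in D0, 393 in D3 over 32 peaks, 265 in D6T+ and 22.4 in D6T- over 3 peaks (a ratio of 0.0569). Tnc, tenascin C, went from 246 to 17.9 (0.0729) and had 290.3 in D6T+. Wisp1, a matricellular growth regulator, went from 182 to 6.74 (0.0371), Flnc, an actin crosslinker, from 177 to 10.8 (0.0609), and Basp1 from 298 to 21.9 (0.0735). Adamtsl3, an ADAMTS-like matrix protein, went from 111 to 5.90 (0.0533). Col5a1, Tnc and Flnc (165 in D6T+) thus had far higher counts in the Thy-1-positive than in the Thy-1-negative cells of day 6, while Wisp1 had 14.2 in D6T+.

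In single regions, the strongest lost peak more than 1 kb from any D6T- peak spanned 10.3 kb in Col1a2 (chr6:4468939-4479198), a chain of type I collagen, with a normalized tag count of 145. It was covered by peaks in D0 and D6T+ and by none in D9T- or any later library. The next lost region that lay in a gene was 5.77 kb in an intron of Trio, a guanine nucleotide exchange factor, with 73.9. The other 3 of the 5 strongest lost regions were short intergenic peaks of 0.500 to 1.00 kb with a fold over input of 2.12 to 2.67, near the 2-fold limit of the peak caller. The strongest gained region was an 18.9 kb peak over Ccnb1ip1 with 334, followed by a 10.7 kb peak in Nav2, a neuronal guidance gene, with 219.6. The Ccnb1ip1 region was covered in D6T+ but not in D0, and the Nav2 region was covered in D0, D6T+ and each later library, so that D3 was the one library without it among those compared. The other gained regions included a pair of intergenic peaks on chromosome 6 (chr6:47725081-47727592 and chr6:47631934-47633860) with 195 and 171 and a fold over input of 2.34 and 2.81, both covered in D6T+ and the second also in D0. A 9.71 kb peak in Dclk2, a microtubule kinase gene, had 170.4 and was covered in D9T-, D12S+, D16S+ and iPSCs but not in D0, D6T+ or ESD3.

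Thy1, the gene of the sorted surface protein, had 69.3 in D0, 16.1 in D3, 28.8 in D6T+ and no peak in D6T-, D9T-, D12S+, D16S+, iPSCs or ESD3. In the list of 30 fibroblast genes, 25 were bound in D3 and 22 in D6T-, a change of -10 percentage points (-30.1 to 11). Col6a2 and Timp1 were gained and Thy1, Col6a1, Lum, Pdgfrb and Fap lost (2 and 5 of 30, beside 8.47% and 6.43% of all genes), and Col6a1 was touched at both times. The larger change lay in amount. Over the 21 fibroblast genes touched at both times the median log2 ratio was -0.62, against 0.72 over all genes, and 9 of them were at least 2-fold lower against 5.55% of all genes.

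Within that list the collagens and their partners differed. Col1a2 went from 313 to 26.0 (0.0831) and Col1a1 from 152 to 59.5 (0.393), both chains of type I collagen. Col5a2 went from 262 to 68.8 (0.262), Loxl1, a collagen and elastin crosslinker, from 66.7 to 6.07 (0.091), and Thbs1, thrombospondin 1, from 195 to 59.5 (0.306). By contrast Col3a1 had 143 and 136, Fbn1, fibrillin 1, had 1101 and 1115, and Vim, the intermediate filament vimentin, had 139 and 274. Fstl1, a secreted glycoprotein, had 562 and 758. H3.3 on the fibroblast genes thus changed unequally.

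Of 24 mesenchymal regulators, 22 were bound in D3 and 21 in D6T-. Snai2 was gained and Cnn1 and Tgfb3 lost (1 and 2 of 24, beside 8.47% and 6.43% of all genes). The median log2 ratio over the 20 touched at both times was 0.15, below the 0.72 of all genes. Cdh11, a mesenchymal cadherin, went from 423 to 111 (0.263) and Cdh2, N-cadherin, from 314 to 148 (0.471). Tgfbr2, the type II receptor for TGF-beta, went from 95.8 to 310.5 (3.24), Zeb2 from 105 to 258 (2.47) and Tcf4 from 271 to 685 (2.52). In D0 and D6T+, Tgfbr2 had 559.8 and 413, Zeb2 266 and 209 and Tcf4 977 and 408. None of these genes was thus higher in D6T- than in D0, and Tgfbr2 was also lower than in D6T+. Zeb2 and Tcf4 code for transcription factors of the mesenchymal state. The AP-1 genes had a median log2 ratio of 0.67 over 10 touched genes, close to the 0.72 of all genes. None was 2-fold lower, beside 5.55% of all genes. Fosl1, called gained by midpoint, had 139.9 and 193, and Junb, called lost, had 58.1 and 86.8. Batf alone lost its peaks by both rules, from 13.6 to 0.

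More epithelial genes carried H3.3 in D6T- than in D3. Of 30 genes, 18 were bound in D3 and 24 in D6T-, a change of 20 points (-3.17 to 40.6), with 8 gained and 2 lost, beside 8.47% and 6.43% of all genes (21 were touched in D3 and 26 in D6T-). With D6T- peaks limited to the covered length of D3 the direction turned, from 18 to 14 bound. The median log2 ratio over the 19 touched at both times was 1.32, and 15 of them were at least 2-fold higher, with none 2-fold lower, beside 36.8% and 5.55% of all genes. Cdh1, E-cadherin, went from 20.7 to 71.0 (3.43), Epcam, an epithelial adhesion protein, from 6.19 to 44.5 (7.19), and Dsp, desmoplakin, from 43.2 to 212 (4.92). Grhl2, a transcription factor of epithelia, went from 10.6 to 75.7 (7.14). The D3 values of Epcam and Grhl2 each came from 1 peak, so their ratios have a loose denominator. In D0 and D6T+, Cdh1 had 42.7 and 30.3, Epcam 14.5 and 0, Dsp 6.49 and 11.4, and Grhl2 17.8 and 0. Krt8, keratin 8, had 0 in D3, 36.7 in D6T+ and 88.6 in D6T-, and St14, the protease matriptase, had 0, 0 and 19.6. The tight junction genes Ocln, F11r and Cldn3 had 29.0, 33.8 and 10.1 in D6T- and 0 in D3, as did Spint1 (19.9) and Ovol1 (13.8), and Pkp3, a desmosomal plakophilin, had 5.83 and 53.1. In D6T+, Ocln had 32.1 and F11r 20.6, while Cldn3, Spint1 and Ovol1 had no peak. In D0, Ocln had 8.16, Spint1 16.1 and Ovol1 13.3, and F11r and Cldn3 had no peak. Of the 2 called lost, Lsr had 6.39 in D3 and 0 in D6T-, and Cldn7 had 17.5 and 21.2 on the gene. Cdh1, Epcam and Grhl2 were higher again in D9T-, at 98.2, 76.8 and 109.

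**Figure D5:**
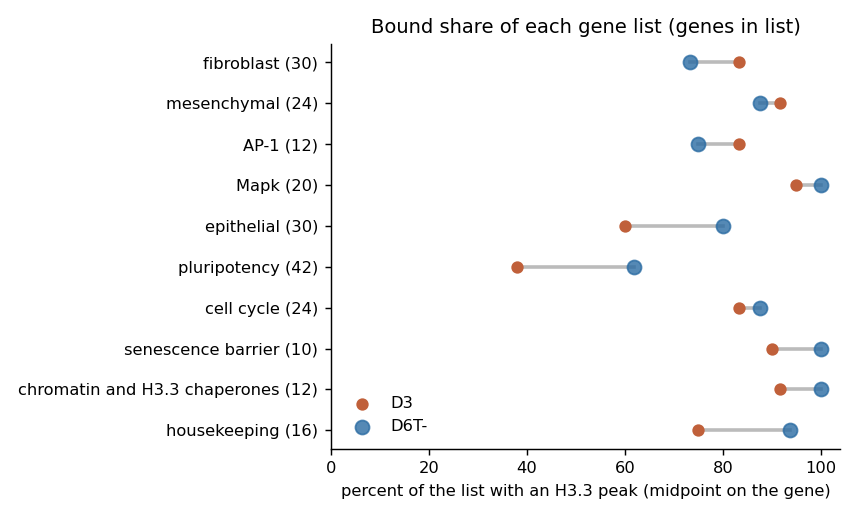
Percent of each gene list (horizontal axis; number of genes in brackets) with the midpoint of an H3.3 peak within the gene or 1 kb of it, in D3 and in D6T-. The pluripotency list went from 38.1% to 61.9%, the epithelial list from 60% to 80% and the fibroblast list from 83.3% to 73.3%.

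Of 42 pluripotency genes, 16 (38.1%) were bound in D3 and 26 (61.9%) in D6T-, a change of 23.8 points (2.47 to 42.3), with 11 gained and Esrrb lost, beside 8.47% and 6.43% of all genes. By touch, 9 were gained and 2 lost, from 19 to 26 genes. Setting all D3 peaks against only the highest D6T- peaks up to the same 81.4 Mb turned the change to -7.14 points. The gained signal was uneven. Tet2 had 372 in D6T- and L1td1, an RNA-binding protein of pluripotent cells, went from 10.3 to 115 (11.2). Gdf3 and Nodal, ligands of the TGF-beta family, had 47.4 and 30.8 in D6T- after 0.511 and 0 in D3, and Fgf4, the fibroblast growth factor of the inner cell mass, had 32.4 after 0. Fgf4, Gdf3 and L1td1 had no peak in D6T+ and had 55.0, 79.1 and 119 in D9T- and 48.0, 46.7 and 137 in iPSCs. Sall1, a zinc finger factor, had 25 after 0.

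Regulators of the network differed widely. Tbx3, Klf5 and Klf2, transcription factors of naive pluripotency, were touched at both times, with 24.6, 20.4 and 7.55 in D3 and 46.3, 30.7 and 18.3 in D6T-. They had 81.2, 11.3 and 10.5 in D0 and 32.2, 31.7 and 12.0 in D6T+. Tbx3 was thus higher in D0 than in D6T-, and Klf5 was about as high in D6T+. Nanog had 1 peak of 6.24 in D6T-, against 131 in iPSCs and 215 in ESD3, and Tcfcp2l1, a regulator of naive pluripotency, also had 6.24, against 144 and 175. Tdgf1, a Nodal coreceptor, had 9.44, Mycn 11.3 and Dppa5a 7.75. Each of these D6T- values came from 1 peak. Dppa5a had higher counts in D0 (32.8) and D6T+ (13.5) than in D6T-. Pou5f1, Zfp42, Dppa2, Dppa3, Dppa4, Prdm14, Nr5a2 and Utf1 had no peak in D3 or D6T-. Esrrb had 24.8 in D0, 6.39 in D3 and 0 in D6T-, against 557 in iPSCs. Genes of the list touched at both times had a median log2 ratio of 1.2 over 17, with 9 at least 2-fold higher, beside 36.8% of all genes. Fbxo15 went from 14.5 to 117 (8.07), Sall4, a zinc finger factor, from 6.00 to 44.0 (7.34), Mybl2, a cell cycle transcription factor, from 27.5 to 140.4 (5.11) and Jarid2, a subunit of PRC2, from 259 to 595 (2.29). The D3 value of Sall4 came from 1 peak near the detection limit, so its ratio has a loose denominator.

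Of the delivered factors, Sox2 had 41.4 in D3 and 25.8 in D6T-, Klf4 80.1 and 89.7, and Myc 83.6 and 62.1, and Pou5f1 had no peak. Input tags in the peaks of Sox2 stood at 4.73 times the library's median density in D3 and 1.77 times in D6T-, against 0.957 times in D0. For Klf4 they were 2.45, 1.83 and 0.929 times. The delivered cDNAs hold the exons of these genes, so tags of the vectors and of the genes cannot be told apart.

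The remaining lists moved with the typical gene or slightly above it. The 24 cell cycle genes were touched in 22 cases in D3 and in all in D6T-, with a median log2 ratio of 0.98 over 22 and 11 of these at least 2-fold higher, beside 36.8% of all genes. Mcm2, of the replicative helicase, went from 0 to 38.9, Mcm3 from 0 to 11.5, Mcm4 from 5.81 to 18.8 and Mcm5 from 25 to 90 (3.60), and Top2a, topoisomerase II, went from 183 to 430.1 (2.35). The 10 genes of the senescence barrier had a median of 0.97 with both directions present. Cdkn2a, which codes for p16 and p19Arf, went from 19.3 to 79.3 (4.10) and Rb1 from 234 to 888 (3.8), whereas Cdkn2b, coding for p15, went from 28.7 to 8.78 (0.306). The Mapk pathway had a median of 0.84 over 19 genes, with Mapk3 (Erk1) at 15.5 and 69.1 (4.46) and Egfr at 289 and 119 (0.410). Mapk8, the kinase Jnk1, had 0 and 6.74.

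Genes of the H3.3 machinery were touched at both times in all 12 cases, with a median log2 ratio of 0.94. Hira, which deposits H3.3 at active chromatin, went from 153 to 292 (1.91), its partner Ubn2 from 45.5 to 207 (4.54), Atrx from 18.6 to 70.7 (3.8) and Daxx from 65.9 to 129 (1.97). H3f3a and H3f3b, the genes for H3.3 itself, went from 127 to 246 (1.94) and from 65.2 to 120.3 (1.84). Chaf1a, a subunit of the replication-coupled chaperone CAF-1, was the one that was 2-fold lower, from 131 to 42.3 (0.323). The 16 housekeeping genes, listed as a reference, had a median of 0.77 over 15, and 4 were at least 2-fold higher, beside the same 36.8%. The ratios of Hira, Daxx, H3f3a and H3f3b were close to the 1.64 of the typical gene.

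Marker lists of cell types that a MEF culture can hold were checked as well. Leukocyte markers were touched in 4 of 10 cases in D3 and 5 in D6T-, endothelial in 6 and 4 of 8, skeletal muscle in 3 and 4 of 8 and neural in 6 and 8 of 8. Defining markers were partly without and partly with peaks. Ptprc, Lyz2 and Emr1 of leukocytes, Tie1 and Erg of endothelium and Myod1 and Myf5 of muscle had no peak in either library. In D3 and D6T-, Csf1r had 60.8 and 8.09, Cd14 17.2 and 0 and Cd68 97.4 and 91.8 among leukocyte markers. By touch, 2 leukocyte markers were gained and 1 was lost. Cdh5 had 14.3 and 0 and Kdr 5.61 and 18.7 among endothelial markers, and Myog, of muscle, had 0 and 21.4. Over each whole list, the summed tag count on the gene in D3 and D6T- was 213 and 161 for leukocyte, 190.3 and 445 for endothelial, 28.0 and 72.3 for skeletal muscle and 440.3 and 825 for neural markers. Pecam1 and Tek, adhesion and receptor genes of endothelium, had 88.3 and 43.2 in D3 and 214 and 204 in D6T-, and Tubb3 and Mtap2, genes of the neuronal cytoskeleton, had 89.4 and 42.2 in D3 and 141 and 181 in D6T-. The part of such cells in the differences between D3 and D6T- was not tested.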

How the data were processed

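H3.3 ChIP-Seq peak lists of D3 and D6T- were compared, with lists of 7 other H3.3 libraries and of H3K4me3 and H3K36me3 at both times as further readouts. Per the labels, the authors mapped reads to mm9 with STAR and called peaks with HOMER, and per the file headers each list was made from 1 library against its input, in histone style, with a 2-fold limit and a p-value limit of 0.0001 over the input. The deposited signal is the normalized tag count, ChIP tags per 10 M tags. The deposited fold over input is a ratio after the larger library was scaled to the smaller, and the deposited p-value against the input, which the authors computed, was not used further. Multi-locus reads had been removed, so near-identical gene copies are under-counted. Versions of these tools are not given in the sources used here.

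Overlaps, gene calls and shares were computed with Python 3.11.15, pandas 2.3.3, numpy 2.4.6 and scipy 1.17.1, and tested on simulated data. Genes were the 22238 protein-coding symbols of GENCODE vM1 on NCBIM37, which is mm9. The study assigned peaks to the nearest start site, which was run as an alternative, and the rule by touch was added after the data were seen. Motif words were searched in 500 bp windows around peak midpoints. The comparison, the gene lists and the words were chosen with earlier results of these data known. The rule for naming genes took the 12 highest gained and 12 highest lost genes, 6 ratios in each direction, list members gained or lost, Thy1 and the 5 strongest regions each way. Some genes it named are given as counts only or not reported here, and genes that changed under all rules or had the most extreme tag count on the gene were named in addition, after their values were seen. 4 list members were matched by an older symbol. Depth was 25.8 and 29.7 M tags, and the tag limit of a peak was 16 in D3 and 18 in D6T-. With 1 library per group no test was made.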

Additional observations from a re-analysis of the deposited data

Results flagged for a closer look

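Input tags within the peaks at the delivered factors stood above the level in D0, the cells before infection. At Sox2 in D3 the density of input tags was 4.73 times the median over all D3 peaks, and at Klf4 in D3 it was 2.45 times. In D0 the same ratios were 0.957 and 0.929. These values were looked at because the input is outside the H3.3 measurement.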

How the results depend on the processing

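The share of D3 peaks lost, 44.0%, became 45.6% with equal numbers of top peaks, 47.2% with equal numbers per kb, 37.6% with the top 25000, 72.7% at a fold over input of at least 4, 55.4% when 0.5 of the peak had to be overlapped and 30.9% when a peak within 1 kb sufficed. The share gained, 58.1%, became 55.5%, 56.9%, 49.5%, 72.1%, 77.4% and 45.9% in the same order. At the 4-fold limit more genes were lost (2428, against 1431 at 2-fold) than gained (2082). Chosen after seeing the data, setting all D3 peaks against the 22080 highest D6T- peaks, which cover the same 81.4 Mb, gave 65.3% lost, 21.4% gained, 364 genes gained, 5052 lost and changes of the bound share of -7.14 points for the pluripotency list, a reversal from 23.8, and of -46.7 points for the fibroblast list, against -10. The epithelial list went from 18 to 14 bound genes there, and no list had more bound genes in D6T- than in D3. Under the other alternatives the pluripotency change stayed positive and the fibroblast change negative. They ranged from 14.3 to 26.2 and from -26.7 to -6.67 points. The share of gained peaks with D6T- H3K4me3 was 20.1% and 21.6% with equal numbers. The Sox word joined to the octamer, also added later, was in 1 gained and 1 lost window, too few to compare. No paired analysis was possible because each group had 1 library, and for the same reason no library could be left out.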
